A study of Mus musculus with 3 samples.

Results

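The genes described here are 10 genes, called growth factor genes below, whose products myeloid cells can make and which act on vessels, stroma and tissue repair. They are Vegfa, Vegfb, Vegfc, Igf1, Pdgfa, Pdgfb, Pdgfc, Hbegf, Tgfb1 and Tgfbi. Of these, Tgfbi encodes a matrix protein and not a growth factor. The 10 genes were chosen by name, and their levels were read from 1 table of transcript levels by a fixed rule. For each Ensembl transcript identifier the first row with a value in all 3 libraries was taken, and the rows were summed per gene. The 10 genes are among 36835 genes with a level by this rule.

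The study examined Foxp3 expression in macrophages of Renca tumors, a transplantable mouse renal carcinoma, grown in the kidney of BALB/C mice. RNA of 3 sorted cell populations was sequenced, with 1 library each, labelled M1 (type-1 macrophages), M2 (type-2 macrophages) and CD4 (CD4 T lymphocytes). The cells were sorted with antibodies to CD45.2, TCRbeta, CD4, F4/80 and CD11b, from 30 pooled tumors for the macrophages and, according to the protocol, from 4 pooled spleens of tumor-bearing mice for the CD4 T cells. The labels also name the tumor as the source of the CD4 T cells, and they give both day 14 and day 16 for the harvest. All mice carried a tumor and none received a treatment named in the labels. Each population is a pool and has 1 library, so that no value has a replicate error, no test between populations was possible and no p-value is given.

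VEGF ligands bind receptor tyrosine kinases on endothelial cells and drive the growth of blood and lymph vessels. PDGF, IGF-1 and the EGF receptor ligand HB-EGF act on receptor tyrosine kinases of fibroblasts, smooth muscle and epithelium, and macrophages are a known source of them in healing wounds. TGF-beta 1 is secreted in a latent complex that must be opened before it binds its receptors, and it curbs T cells and drives matrix deposition, while TGFBI is a matrix protein named for its induction by TGF-beta.

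The names of the libraries were first set beside cell type markers. Levels are in FPKM, the number of sequenced fragments divided by the length of the transcript and by the size of the library. T-cell markers went against the labels: all 11 with a level were highest in the library labelled M2, where they summed to 1902 FPKM, against 2.781 FPKM in the library labelled M1 and 17.29 FPKM in that labelled CD4. Cd3e, a chain of the T-cell receptor complex, stood at 125.9 FPKM in the library labelled M2, 0.1312 FPKM in M1 and 0.1406 FPKM in CD4. The 11 macrophage markers with a level summed to 2326 FPKM in the library labelled M1, 318 FPKM in M2 and 6113 FPKM in CD4. None of them was at 0 in any library, and each was lower in the library labelled M2 than in both others. For Emr1, the gene of the sort marker F4/80, the levels were 45.29 FPKM in M1, 9.162 FPKM in M2 and 215.4 FPKM in CD4. The populations are therefore called the libraries labelled M1, M2 and CD4 throughout, and no value is assigned to a cell type. In these bulk libraries, fewer cells of a type and less RNA per cell cannot be told apart. The depth, estimated in units of 1000000 fragments, was 61.4 for M1, 60.1 for M2 and 73.0 for CD4.

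**Figure D1:**
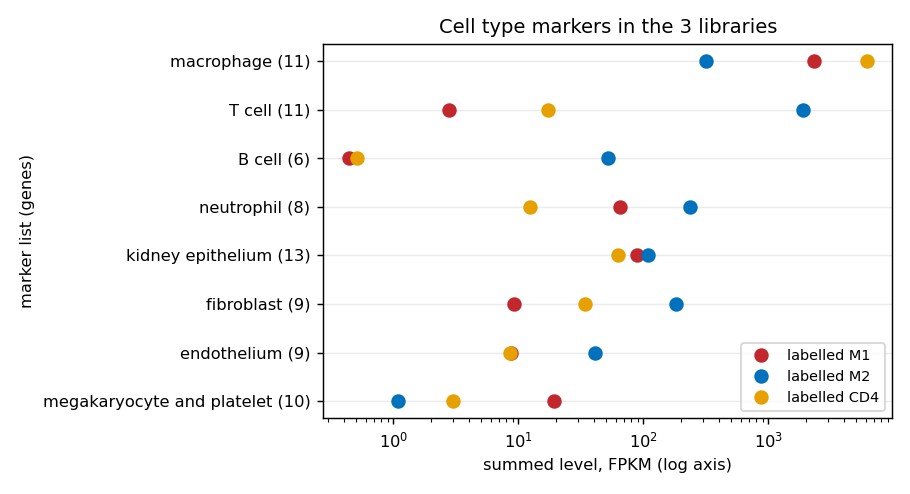
Summed level in FPKM (log axis) of 8 marker lists in the 3 libraries, 1 point for each library, with the number of genes with a level in brackets. T-cell markers summed to 1902 FPKM in the library labelled M2, while macrophage markers were highest in the library labelled CD4 at 6113 FPKM.

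The table lists transcripts, and 5 of the genes with at least 1 FPKM in 1 library had values for at least 2 annotated transcripts. The reference sequences across coding junctions that tell apart the leading 2 of each gene are shown, although the pairs of Igf1, Pdgfa, Pdgfc and Tgfbi also differ elsewhere. They come from the mouse reference build NCBIM37, also called mm9, and not from the reads of these mice. Each run is 5′ to 3′ on the strand of the gene, with the last 15 bases of the upstream exon in lower case and the first 15 bases of the downstream exon in capitals.
Vegfa-201, exon 5 to exon 6: aacaaagccagaaaaTCACTGTGAGCCTTG
Vegfa-203, exon 5 to exon 6: aacaaagccagaaaaAAAATCAGTTCGAGG
Vegfa-203, exon 6 to exon 7: taaatcctggagcgtTCACTGTGAGCCTTG
Igf1-001, exon 3 to exon 4: cccaagactcagaagGAAGTACATTTGAAG
Igf1-201, exon 3 to exon 4: cccaagactcagaagTCCCCGTCCCTATCG
Igf1-201, exon 4 to exon 5: aaaggagaaggaaagGAAGTACATTTGAAG
Pdgfa-001, exon 5 to exon 6: gggaggaggagacagATGTGAGGTGAGATG
Pdgfa-002, exon 5 to exon 6: gggaggaggagacagGAAGGCGTAGGGAAT
Pdgfc-001, exon 1 to exon 2: acaaggaacagaacgGAGTGCAAGATCCCC
Pdgfc-002, exon 1 to exon 2: acaaggaacagaacgGGAGGAACTATACCC
Tgfbi-201, exon 14 to exon 15: ttctgcagccgccagCCAACCGACCACAAG
Tgfbi-202, exon 14 to exon 15: ttctgcagccgccagGCTGTTTTTCCTTTC
In Vegfa-203 an added exon of 72 bases, chr17:46159226-46159297, keeps the reading frame. In Igf1-201 the added exon of 52 bases, chr10:87378043-87378094, does not keep it and changes the end of the precursor behind the mature hormone. The added exon of Pdgfa-002, 69 bases at chr5:139454576-139454644, has a length divisible by 3. The reading frame of Pdgfa-002 ends within it, with 211 codons against 196 in Pdgfa-001. Exon 2 of Pdgfc-002, 59 bases at chr3:80934940-80934998, is absent from Pdgfc-001 and holds near its end the stop codon of a short reading frame, in capitals among its last 27 bases, chr3:80934972-80934998:
Pdgfc-002, end of exon 2: agaaaagaggagaaagaacatTAAaag
In Tgfbi-202 exon 15 begins 22 bases earlier, at chr13:56738477, and the frame is shifted from there.

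Levels by the rule ran from 0 for Vegfb in all 3 libraries and under 0.2 FPKM for Vegfc to 459.5 FPKM for Tgfbi in the library labelled M1. FPKM is a level per length, so that genes can be compared within a library. The 10 genes summed to 592.5 FPKM in the library labelled M1, 78.09 FPKM in M2 and 319.5 FPKM in CD4. Tgfb1 and Tgfbi together held 93.59% of this sum in M1, 63.81% in M2 and 81.57% in CD4. Without Tgfbi the sums were 132.9, 63.34 and 140.9 FPKM for M1, M2 and CD4. A level of at least 1 FPKM was reached by 8 of the 10 genes in the libraries labelled M1 and CD4 and by 7 in M2, and a level of at least 10 FPKM by 3 genes in M1, 2 in M2 and 4 in CD4.

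The rule leaves out rows that carry a dash in place of a value for at least 1 library, and for 3 of the genes much of the listed level is in such rows. Of the 29 rows of these genes with a value above 0, 15 in 6 genes were not used. The level with all rows summed, a dash taken as 0, is therefore given beside the rule's level wherever it differs by more than 1 FPKM for one of the 10 genes, and for the pathway genes named below where it differs by more than 1 FPKM or changes a call that is given. Intervals in brackets after a level are exact 95% Poisson intervals from the estimated depth, and intervals after a fold are exact conditional binomial ones. Both cover counting error only, not the spread between animals or sorts and not the sharing of fragments between overlapping transcripts.

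**Figure D2:**
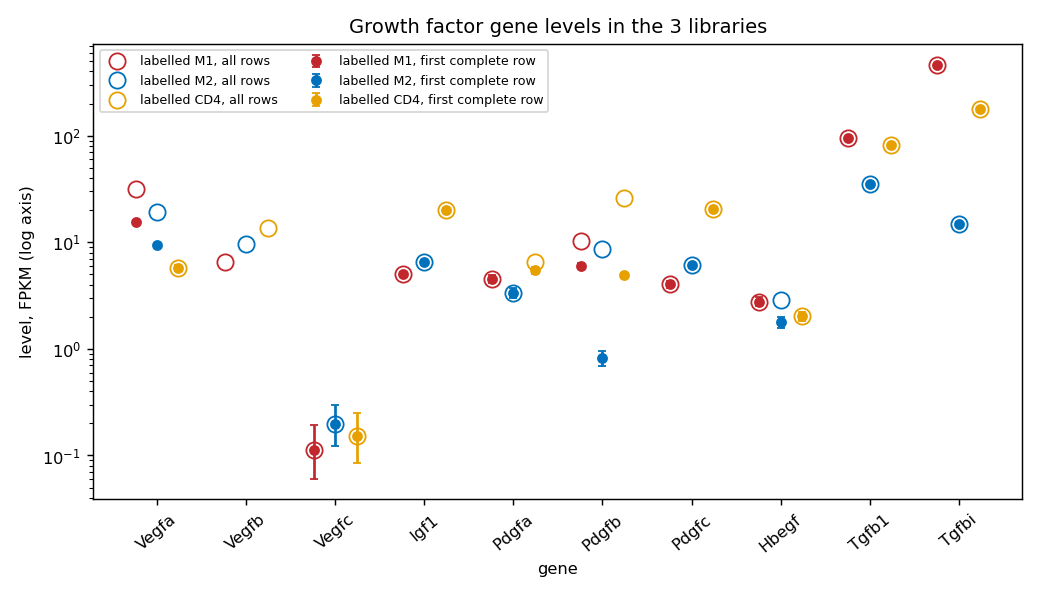
Level in FPKM (log axis) of each gene in the 3 libraries, as filled points for the first complete row of each identifier, with exact 95% counting intervals where larger than the point, and as open circles for all rows summed. Vegfb has no filled point because its level by the rule is 0. Tgfbi stands at 459.5, 14.75 and 178.7 FPKM in the libraries labelled M1, M2 and CD4, and filled and open points part most for Vegfa, Vegfb and Pdgfb.

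Vegfa, the main inducer of new blood vessels, lies on the minus strand at chr17:46153942-46169326. By the rule it stood at 15.54 FPKM (15.01 to 16.08) in the library labelled M1, 9.487 FPKM (9.072 to 9.915) in M2 and 5.794 FPKM (5.501 to 6.099) in CD4. The order was M1 above M2 above CD4, with no overlap of the counting intervals. With all rows the levels were 31.75, 19.35 and 5.794 FPKM in the same order, since 2 further rows, both of Vegfa-203, had values in M1 and M2 but a dash in CD4.

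All of the rule's Vegfa level was in Vegfa-201, a transcript of 7 exons with a reading frame of 190 codons that joins exon 5 directly to the exon after the added one. Vegfa-203, with 214 codons, keeps the added exon, which encodes basic residues that bind longer forms of the factor to heparan sulphate of the matrix. Its complete row was at 0 in all 3 libraries. Its rows with a dash held 9.394 and 6.819 FPKM in the library labelled M1 and 9.862 FPKM in M2, against no value in CD4. The listed Vegfa of the library labelled CD4 was thus all under the identifier of Vegfa-201, whereas M1 and M2 had values under both identifiers. Whether the rows with a dash hold the added exon is not given in the sources used here.

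Vegfb (chr19:7056963-7062141, minus strand), a ligand of the VEGF receptor Flt1, had a level of 0 by the rule in all 3 libraries. Its only identifier with a complete row was Vegfb-003, a retained-intron transcript without a reading frame. The rows of the coding transcripts Vegfb-001 and Vegfb-002 all carried a dash in at least 1 library and summed to 6.567 FPKM in the library labelled M1, 9.712 FPKM in M2 and 13.62 FPKM in CD4. A level of 0 by the rule is thus not an absence of Vegfb from these libraries. Vegfc (chr8:55162886-55271808, plus strand), the ligand that drives lymphatic vessel growth, was at 0.1134 FPKM (0.06054 to 0.1936) in M1, 0.1963 FPKM (0.1233 to 0.2967) in M2 and 0.1518 FPKM (0.08492 to 0.2505) in CD4. The 3 intervals overlap, and Vegfc was below the minimum of 1 FPKM in every library.

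Igf1 (chr10:87321010-87399792, plus strand) encodes insulin-like growth factor 1, a growth and survival factor made by liver and by tissue macrophages. It stood at 5.06 FPKM (4.851 to 5.276) in the library labelled M1, 6.593 FPKM (6.351 to 6.842) in M2 and 19.97 FPKM (19.59 to 20.36) in CD4. The library labelled CD4 was highest, and M1 and M2 were closer to each other, with intervals that do not overlap. Igf1-001 held all of the level in M2 and CD4. In the library labelled M1 it held 66.47%, and Igf1-201, whose added exon alters the precursor behind the mature hormone, held 33.53%, or 1.697 FPKM. Igf1-001 shares 100% of its length with Igf1-201, so that this split rests on the share of fragments that the model gave to each. The antisense gene Gm16176 overlaps Igf1 and stood at 0.05872 to 0.09872 FPKM.

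Pdgfa (chr5:139451968-139473324, minus strand) and Pdgfb (chr15:79826330-79845238, minus strand) encode the chains of the classical platelet-derived growth factors, which recruit fibroblasts and pericytes. Pdgfa was at 4.481 FPKM (4.106 to 4.88) in the library labelled M1, 3.332 FPKM (3.007 to 3.683) in M2 and 5.466 FPKM (5.088 to 5.865) in CD4, or 6.524 FPKM in CD4 with all rows. The library labelled CD4 was highest and M2 lowest, with no overlap of the intervals. Pdgfa-001 held 71.93% of the level in M1, 72.65% in M2 and 76.72% in CD4, and Pdgfa-002 the rest. The added exon of Pdgfa-002 encodes the basic stretch that keeps the long form of the chain at the cell surface and in the matrix. Of 2 antisense genes that overlap Pdgfa, Gm17247 was at 0 in all libraries and 6330403L08Rik was above 0 only in the library labelled CD4, at 0.8974 FPKM.

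Pdgfb stood at 5.963 FPKM (5.611 to 6.332) in the library labelled M1, 0.8126 FPKM (0.6847 to 0.9574) in M2 and 4.878 FPKM (4.586 to 5.184) in CD4 by the rule. With all rows the levels were 10.34 FPKM in M1, 8.619 FPKM in M2 and 26.05 FPKM in CD4. The order thus changes with the rows used: M1 was highest by the rule and CD4 with all rows. All 6 rows carry the identifier of Pdgfb-201, the only annotated transcript, and 5 of them have a dash. The largest of these was 16.39 FPKM in the library labelled CD4, with a dash in the others.

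Pdgfc (chr3:80840338-81017962, plus strand), a PDGF ligand that is activated by proteolytic removal of its CUB domain, was at 4.042 FPKM (3.755 to 4.345) in the library labelled M1, 6.064 FPKM (5.705 to 6.439) in M2 and 20.6 FPKM (20.0 to 21.22) in CD4. The library labelled CD4 was highest, as for Igf1. Most of the level was in Pdgfc-002, which is annotated as a target of nonsense-mediated decay with a reading frame of 57 codons: 79.5% in M1, 84.18% in M2 and 81.57% in CD4. The full coding transcript Pdgfc-001, with 345 codons, was at 0.8285, 0.959 and 3.797 FPKM in M1, M2 and CD4. The summed level of Pdgfc is hence mostly that of a transcript without the full reading frame, and the split rests on the share of fragments that the model gave to transcripts sharing 78.4% of the length of Pdgfc-001.

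Hbegf, a membrane-anchored ligand of the EGF receptor that is shed by metalloproteases, stood at 2.777 FPKM (2.513 to 3.061) in the library labelled M1, 1.774 FPKM (1.563 to 2.007) in M2 and 2.016 FPKM (1.81 to 2.239) in CD4. The intervals of M2 and CD4 overlap, and that of M1 lies above both. With all rows M2 was at 2.899 FPKM, the highest of the 3.

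Tgfb1 (chr7:26472021-26490096, plus strand), which encodes TGF-beta 1, was at 94.94 FPKM (93.29 to 96.61) in the library labelled M1, 35.08 FPKM (34.08 to 36.11) in M2 and 81.97 FPKM (80.57 to 83.39) in CD4. It was high in all 3: its level exceeded that of 95.73% of the 12703 genes tested in M1, 87.45% in M2 and 95.04% in CD4. The whole level by the rule was in the coding transcript Tgfb1-001.

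Tgfbi (chr13:56710920-56740923, plus strand), the TGF-beta-induced matrix protein, varied most between the libraries of these genes. It stood at 459.5 FPKM (456.3 to 462.8) in the library labelled M1, 14.75 FPKM (14.16 to 15.34) in M2 and 178.7 FPKM (176.8 to 180.5) in CD4. Its level exceeded that of 99.39% of the tested genes in M1, 67.49% in M2 and 98.0% in CD4. Tgfbi-201, with 683 codons, led in every library, with 75.71% of the level in M1, 80.36% in M2 and 76.44% in CD4. Tgfbi-202, with 651 codons and the earlier start of exon 15, held the rest.

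**Figure D3:**
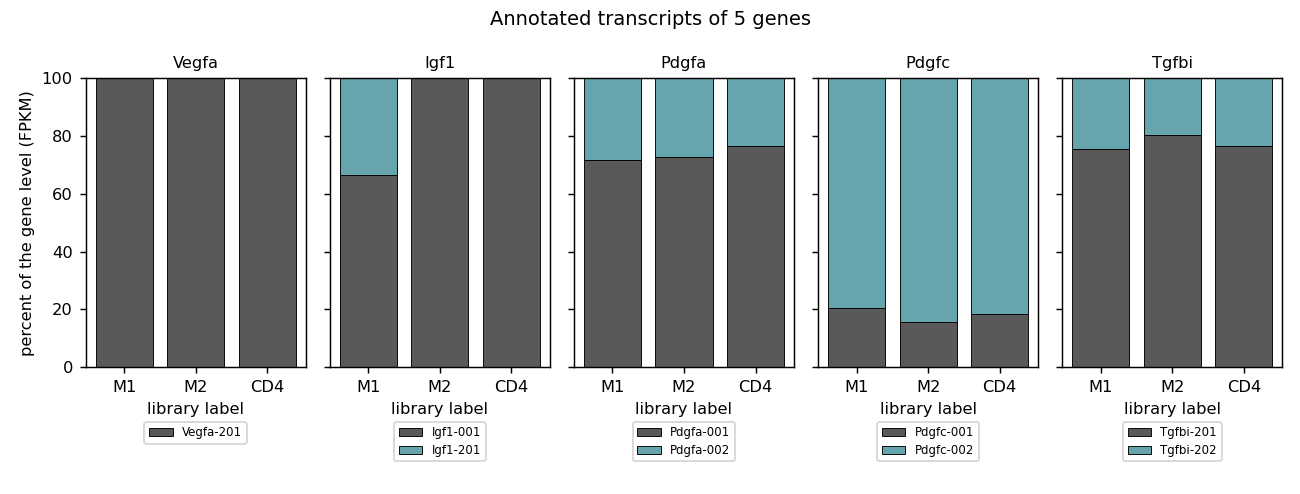
Percent of the gene's level in FPKM held by each annotated transcript in the 3 libraries, by the first complete row of each identifier. Igf1-201 appears only in the library labelled M1, at 33.53%, and Pdgfc-002 holds 79.5% to 84.18% of Pdgfc in every library.

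Of the 4 genes with more than 1 annotated transcript above 0 in these rows and a level above the minimum, all 4 (Igf1, Pdgfa, Pdgfc and Tgfbi) had the same leading transcript in the 3 libraries. The splits of Pdgfa, Pdgfc and Tgfbi ranged over 4.79, 4.68 and 4.65 percentage points between the libraries, and that of Igf1 over 33.53. With all rows the leading identifier of Vegfa differed between libraries. Vegfa-203 led Vegfa-201 in M1, at 16.21 against 15.54 FPKM, and in M2, at 9.862 against 9.487 FPKM. Vegfa-201 led in CD4.

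The libraries were then compared in pairs by the log2 ratio of FPKM + 1, and a gene was called higher or lower at a log2 ratio of at least 1 in size. This scale understates the change of low genes. The background is the share of genes called among the 12703 genes with at least 1 FPKM in at least 1 library. Among the growth factor genes 8 of 10 passed this minimum, all but Vegfb and Vegfc. The 3 pairs share libraries, so that their counts are not independent.

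In the library labelled CD4, set against that labelled M1, Igf1 and Pdgfc were higher and Vegfa and Tgfbi lower. Of the 8 genes tested 4 were called, against a background of 13.0% (6.37% higher and 6.6% lower), and their median log2 ratio was -0.23 against 0 for all genes tested. Igf1 was 3.95-fold higher (3.77 to 4.14), a log2 ratio of 1.79, and Pdgfc 5.10-fold higher (4.71 to 5.52), a log2 ratio of 2.1. These ratios exceeded those of 97.54% and 98.19% of the tested genes. Vegfa was 2.68-fold lower (2.52 to 2.85), a log2 ratio of -1.28, and Tgfbi 2.57-fold lower (2.54 to 2.61), a log2 ratio of -1.36. Both libraries were high in macrophage markers. Tgfb1, Pdgfa, Pdgfb and Hbegf were not called, with log2 ratios of -0.21, 0.24, -0.24 and -0.32.

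With all rows summed, 9 of the 10 genes were tested, of which 3 were higher and 2 lower, against a background of 12.4% (6.1% higher and 6.3% lower). The Vegfa ratio widened to a log2 ratio of -2.27, Pdgfb turned to 1.25 and was then called higher at 2.52-fold, and Vegfb was 2.07-fold higher at a log2 ratio of 0.95, short of the call. Counted on coding transcripts alone, Pdgfc had a log2 ratio of 1.39. Of the 5 fibroblast markers tested 4 were called higher in CD4 than in M1, as Igf1 and Pdgfc were, beside 6.37% of all genes tested. With all rows these were 4 of 7, beside 6.1%. Col1a1 was at 1.576 FPKM in the library labelled M1, 2.022 FPKM in M2 and 7.963 FPKM in CD4. Pdgfrb and Col5a1, below the minimum by the rule, went the other way at log2 ratios of -0.90 and -0.37. With all rows they were at 0.39 and 0.45. The whole list of 9 summed to 9.258 FPKM in M1, 182.2 FPKM in M2, where Thy1, which T cells also express, gave 171.3 FPKM, and 34.12 FPKM in CD4. The part of these cells in the Igf1 and Pdgfc levels was not tested. Ppbp, a platelet chemokine, was at 18.85 FPKM in M1, 0.4303 FPKM in M2 and 2.72 FPKM in CD4. By the rule none of the 9 other megakaryocyte and platelet markers reached 1 FPKM in any library, while with all rows Treml1 was at 2.543 FPKM in CD4 and Itga2b at 1.424 FPKM in M2.

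In the library labelled M2, set against that labelled M1, Pdgfb, Tgfb1 and Tgfbi were lower and no member was higher. These are 3 of 8 genes, against a background of 30.8% called, with 16.6% higher and 14.2% lower. The median log2 ratio was -0.55, against 0.09 for all genes tested. Tgfbi was 31.2-fold lower (29.9 to 32.5), a log2 ratio of -4.87, and only 0.283% of tested genes had a lower ratio. Tgfb1 was 2.71-fold lower (2.62 to 2.80), a log2 ratio of -1.41. Pdgfb was 7.34-fold lower (6.16 to 8.80), a log2 ratio of -1.94 that shrank to -0.24 with all rows. Vegfa was 1.64-fold lower (1.55 to 1.73), short of the call, and Igf1 and Pdgfc had log2 ratios of 0.33 and 0.49. With all rows 2 of 9 genes were lower and none higher, against a background of 32.9% (19.7% higher and 13.2% lower).

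In the library labelled M2, set against that labelled CD4, 5 genes were lower: Tgfbi, Pdgfb, Pdgfc, Igf1 and Tgfb1. None of the 8 was higher, against a background of 32.0% called (17.0% higher and 15.0% lower), and the median log2 ratio was -1.33 against 0.10 for all genes tested. Tgfbi was 12.1-fold lower (11.6 to 12.6), a log2 ratio of -3.51, and Pdgfc 3.40-fold lower (3.18 to 3.64), a log2 ratio of -1.61. Igf1 was 3.03-fold lower, Tgfb1 2.34-fold lower and Pdgfb 6.0-fold lower. The Pdgfb ratio stayed past the call with all rows, at a log2 ratio of -1.49. Vegfa had a log2 ratio of 0.63, which rose to 1.58 with all rows, when it was called higher. With all rows 1 of 9 genes was higher and 5 were lower, against a background of 34.0% (20.1% higher and 14.0% lower). Macrophage markers were lower in the library labelled M2 than in each other library in 11 of 11 genes, and T-cell markers higher in 11 of 11. B-cell markers were called higher in M2 in 4 of 4 tested genes against each other library, and neutrophil markers in 5 of 7 against M1 and 6 of 7 against CD4. The neutrophil marker Mmp8 was called lower in M2 than in M1, at 1.081 against 15.88 FPKM. The lists of 6 B-cell and 8 neutrophil markers summed to 0.441 and 65.63 FPKM in M1, 51.9 and 234.1 FPKM in M2, and 0.5084 and 12.29 FPKM in CD4. The part of these differences in cell content in the growth factor levels was not tested.

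**Figure D4:**
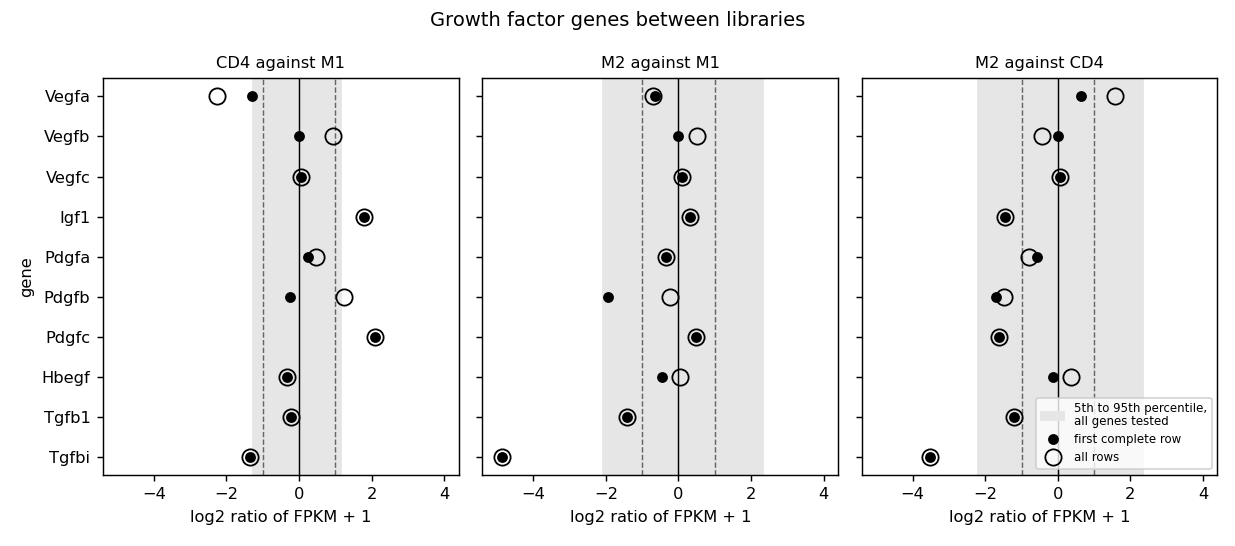
Log2 ratio of FPKM + 1 of each gene in the 3 pairs of libraries, as filled points for the first complete row of each identifier and open circles for all rows summed, with dashed lines at the call of 1 in size and a grey band from the 5th to the 95th percentile of all genes tested. Tgfbi lies at -1.36, -4.87 and -3.51 in the 3 pairs, and Pdgfb, Vegfa and Vegfb are the genes whose points part most.

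Each library was also rescaled to the same total of 1000000. Without a pseudocount this shifts the log2 ratios of the library labelled M2 up by 0.18 against M1 and by 0.17 against CD4. The pseudocount of 1 was kept, so that all levels also rise against it and the ratios did not all move up. Among the 8 genes only Pdgfb moved down, from -1.94 to -2.33 against M1 and from -1.70 to -2.07 against CD4. The rescaling changed no call and no direction among the 8 genes. Tgfb1 lay at -1.25 against M1 and -1.05 against CD4 on that scale, the latter close to the call.

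Other genes of the same pathways were read from 4 lists: other ligands, receptors, binding proteins and proteases, and genes of TGF-beta signalling and response. Of their 77 genes 52 were tested. Of these 8 were called between the libraries labelled CD4 and M1, 17 between M2 and M1, and 16 between M2 and CD4. Beside the backgrounds of 13.0%, 30.8% and 32.0% these are 15.4%, 32.7% and 30.8% of the genes tested. The higher and lower calls were 4 and 4, 8 and 9, and 7 and 9 in the 3 pairs. With each library rescaled to the same total, and so with levels raised against the pseudocount, they were 7 and 6, 16 and 11, and 12 and 10. All genes shifted with them on that scale, to 8.11% higher and 7.9% lower, 24% and 13.8%, and 23.9% and 14.8% in the 3 pairs. With scaling by the median ratio the first pair had 5 and 3, and all genes 6.61% and 6.49%. With all rows 56 genes were tested and 12, 24 and 22 were called, or 21.4%, 42.9% and 39.3%, beside backgrounds of 12.4%, 32.9% and 34.0%.

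Among 20 other ligands 10 were tested. Between the libraries labelled CD4 and M1, 2 were higher and 1 lower, beside 6.37% and 6.6% of all genes tested. The higher ones were Egf, the founding ligand of the EGF receptor, and Grn, which encodes the growth factor progranulin. Pgf was lower. Grn was the most abundant, at 347 FPKM in M1, 200.7 FPKM in M2 and 741.3 FPKM in CD4. Pgf, placental growth factor, which binds Flt1 as Vegfb does, was at 5.455 FPKM in M1, 0.2429 FPKM in M2 and 2.203 FPKM in CD4, and was called lower in M2 against both others. Nrg1, a ligand of ErbB receptors, was lower in M2 than in M1, at 0.3093 against 2.938 FPKM, or 1.099 against 7.398 FPKM with all rows, when CD4 was at 3.647 FPKM and M2 was called lower than CD4 too. Fgf2 was at 2.631 FPKM in M2 and listed at 0 in M1 and CD4. Grn was also lower in M2 than in CD4. Egf was at 0.6491 FPKM in M1, 1.48 FPKM in M2 and 3.186 FPKM in CD4. Of 8 kidney epithelium markers tested 3 were called higher in CD4 than in M1 and 2 lower. The part of kidney cells in the Egf level was not tested.

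Among 20 receptors 15 were tested, and the receptor kinases for PDGF and VEGF were low. Pdgfra was below 0.2 FPKM in all 3 libraries, Pdgfrb was below 1 FPKM by the rule and at 1.438 FPKM in CD4 with all rows, and Flt1 was at 0.9378, 0.3392 and 0.3586 FPKM in M1, M2 and CD4. Kdr, the main VEGF receptor of blood vessels, was at 1.305, 0.3495 and 1.48 FPKM. Nrp1, a co-receptor of VEGF, was by the rule the 1 receptor called higher in CD4 than in M1, at 47.43 against 9.905 FPKM, with 7.25 FPKM in M2. With all rows Tgfbr2 was called there too. Igf2r, which clears IGF2 and carries lysosomal enzymes, was lower in CD4, at 2.56 FPKM against 8.18 FPKM in M1 and 9.59 FPKM in M2, or 22.17 FPKM in M2 with all rows, when M2 was also called higher than M1.

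Among TGF-beta receptors Tgfbr3, the co-receptor betaglycan, was at 9.966 FPKM in the library labelled M2 against 0.1162 FPKM in M1 and 0.1617 FPKM in CD4, and it was called higher in M2 with all rows too. Tgfbr2, the type II receptor, was at 11.93 FPKM in M1, 28.16 FPKM in M2 and 24.64 FPKM in CD4 by the rule, and M2 was called higher than M1. With all rows it was at 18.74, 28.16 and 86.96 FPKM, so that this call was lost at a log2 ratio of 0.56, CD4 was highest, and M2 was called lower than CD4 at -1.59. Acvrl1, a type I receptor known from endothelium, was lower in M2, at 0.8626 FPKM against 13.15 FPKM in M1 and 10.91 FPKM in CD4. Cd44, a receptor for hyaluronan that also carries HB-EGF, was lower in M2 than in M1, at 30.21 against 72.12 FPKM. By the rule 4 of the 15 receptors tested were lower and 2 higher in M2 than in CD4, beside 15.0% and 17.0% of all genes tested. The 2 higher were Tgfbr3 and Igf2r. The 4 lower were Acvrl1, Nrp1, Eng and Nrp2. Nrp2 is outside the rule for named genes and is given because its call was seen.

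Among 25 binding proteins and proteases 15 were tested. Thbs1, which encodes thrombospondin 1, an inhibitor of vessel growth and an activator of latent TGF-beta, was at 59.34 FPKM in M1, 6.631 FPKM in M2 and 11.49 FPKM in CD4, so that M1 alone was high. Lrrc33, which anchors latent TGF-beta 1 on myeloid cells, was at 166.6, 11.0 and 78.18 FPKM in M1, M2 and CD4 by the rule and at 166.6, 37.98 and 119.9 FPKM with all rows. Its log2 ratio of M2 against M1 was then -2.10 in place of -3.80, and CD4 was no longer called lower than M1. Lrrc32, which anchors it on regulatory T cells and platelets, was at 0.3496, 1.524 and 0.2237 FPKM. Lrrc33 followed the order of Tgfb1 and Tgfbi over the 3 libraries with either set of rows, while Lrrc32 was highest in M2.

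Plau, the urokinase-type plasminogen activator, was at 120.9 FPKM in M1, 19.98 FPKM in M2 and 172.5 FPKM in CD4, or 204.3 FPKM in CD4 with all rows, and Adam17, a metalloprotease that sheds HB-EGF, at 49.68, 20.88 and 55.66 FPKM. Both were lower in M2 than in each other library. Furin, a convertase that cleaves the TGF-beta precursor, was lower in M2 than in M1, at 17.4 against 47.08 FPKM. Furin is likewise outside the rule and was added with its value known. Plat was higher in M2 than in M1, at 14.99 against 6.133 FPKM. Ltbp3, a latent TGF-beta binding protein, was at 5.449 FPKM in M2 and listed at 0 in CD4, and in M1 at 0 by the rule and 1.213 FPKM with all rows. Dcn, the proteoglycan decorin, was at 0.8531 FPKM in M1, 1.101 FPKM in M2 and 2.722 FPKM in CD4, and was called higher in CD4 than in M1.

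All 12 genes of TGF-beta signalling and response were tested. None was called between the libraries labelled CD4 and M1, beside 13.0% of all genes tested. In M2 3 were called higher than in M1 and 2 higher than in CD4, beside backgrounds of 16.6% and 17.0% called higher. None was lower in M2, beside backgrounds of 14.2% and 15.0% called lower. With all rows 4 and 3 were higher, beside 19.7% and 20.1%, and none lower, beside 13.2% and 14.0%. Smad7, the inhibitory Smad induced by TGF-beta, was at 6.378 FPKM in M1, 24.26 FPKM in M2, or 31.47 FPKM with all rows, and 2.936 FPKM in CD4. Itgae, the integrin chain CD103 of T cells in tissue, was at 0.0988, 6.084 and 0.3813 FPKM, and Smad3, a receptor-activated Smad, at 4.306, 11.75 and 5.921 FPKM. Tgfbi and these genes thus did not share 1 order: Tgfbi was lowest in the library labelled M2, where Smad7, Smad3 and Itgae were highest. Smad7, Smad3 and Itgae were named because they were called higher in M2, so that their place there follows largely from that choice. Not all of the list went with them: Smad2 and Tgif1 were highest in M1 with either set of rows. Both are outside the rule for named genes and were added with their values known.

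**Figure D5:**
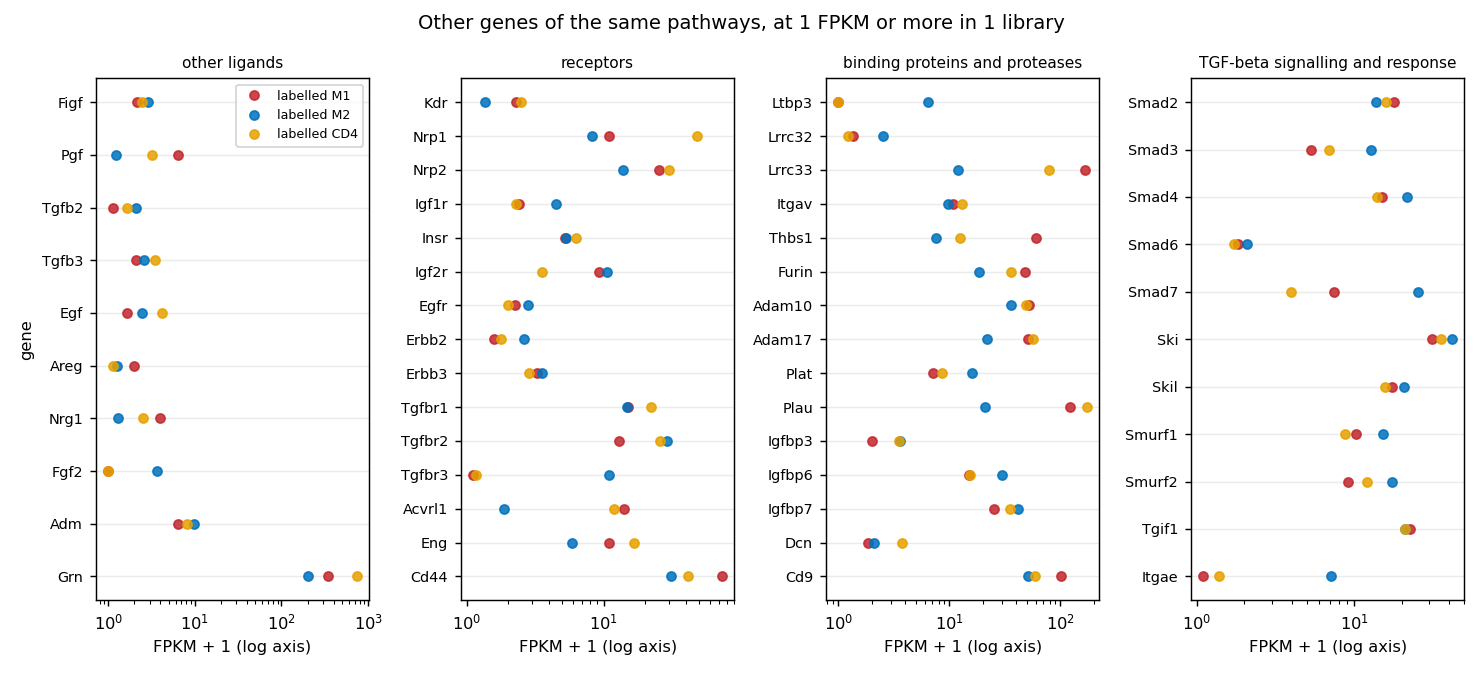
Level plus 1 in FPKM (log axis) of the tested genes of the 4 lists in the 3 libraries by the first complete row of each identifier, with 1 gene not shown. Nrp1 stands out to the right in the library labelled CD4 at 47.43 FPKM, Thbs1 in M1 at 59.34 FPKM, and Tgfbr3, Smad7 and Itgae in M2 at 9.966, 24.26 and 6.084 FPKM.

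For each gene with at least 10 FPKM in 1 library, the protein-coding gene with the most similar levels was sought among 22134, by the distance between log2(FPKM + 1) values over the 3 libraries. It was Spnb2 for Vegfa (distance 0.15), at 14.8, 9.569 and 5.183 FPKM in M1, M2 and CD4. It was Eif2ak1 for Igf1 (0.23), Tmem8 for Pdgfc (0.25) and Snx1 for Tgfb1 (0.13). Lilrb4, an inhibitory receptor of myeloid cells, was the nearest to Tgfbi (0.47), at 447.1, 19.82 and 211.4 FPKM. With 3 libraries such likeness covers 3 values only.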

How the data were processed

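RNA of sorted cells was sequenced from 3 pools, with 1 library for each label. According to the methods and the labels, libraries were made with the Illumina TruSeq RNA kit, reads were trimmed by quality and aligned to mouse genome MM9 with TopHat and Bowtie, and transcripts were assembled and quantified with Cufflinks and the Ensembl annotation. Whether strand was used is not given in the sources used here. The values the authors deposited are FPKM per transcript, in 1 table with a column for each library. Of its 135070 rows 10182 had no identifier and 42780 (31.7%) had a dash for at least 1 library. Of 92519 identifiers 90316 (97.62%) had an entry in the GENCODE annotation on build NCBIM37, which gave gene names and lengths.

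For each identifier the first row with 3 values was taken and rows were summed per gene. Ratios used a pseudocount of 1 FPKM and a minimum of 1 FPKM in 1 library, and a gene was called at a log2 ratio of 1. With 1 library per group there was no test. Depth, which FPKM does not hold, was estimated from the lowest steps of FPKM times length, and fragments behind a level from depth and length, giving exact 95% intervals that cover counting error only. Rows with a dash have no interval. The calculations were tested on simulated data. Columns were assigned by their headings alone.

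The genes and gene lists were chosen with earlier results of these data known. Named were the 10 genes, up to 3 called genes with the largest ratio in each direction for each pathway list and pair, marker sums with defining markers, and for each of the 10 genes with at least 10 FPKM in 1 library the nearest protein-coding gene. Alternatives were another pseudocount, other rows or transcripts, 2 scalings and other minimum levels. For 1 gene of the pathway lists no level is reported here, although the counts include it. Foxp3, flow cytometry and blots were not analysed here. Calculations ran in Python 3.11.15 (scipy 1.17.1, pandas 2.3.3, numpy 2.4.6), and plots in matplotlib 3.10.9.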

Additional observations from a re-analysis of the deposited data

Results flagged for a closer look

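Values outside the rows used above appeared for 5 of the growth factor genes at 1 FPKM or more, in rows with a dash for at least 1 library. For Vegfa such rows summed to 16.21 FPKM in the library labelled M1 and 9.862 FPKM in M2. For Vegfb they summed to 6.567 FPKM in M1, 9.712 FPKM in M2 and 13.62 FPKM in CD4, while its level by the rule is 0. For Pdgfb they summed to 4.375 FPKM in M1, 7.807 FPKM in M2 and 21.17 FPKM in CD4, the last of which exceeds its level by the rule of 4.878 FPKM. Pdgfa had 1.058 FPKM in such rows in the library labelled CD4, and Hbegf 1.125 FPKM in M2. No counting interval was calculated for these rows.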

How the results depend on the processing

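Among the growth factor genes, 12 calls were made over 24 ratios. All 12 were kept with a pseudocount of 0.1, the largest complete row, coding transcripts alone, both scalings and no minimum, and 10 of the 12 remained among the 15 ratios tested with a minimum of 10 FPKM. With all rows summed 11 were kept, the call of Pdgfb between the libraries labelled M2 and M1 was lost (-0.24), 2 were gained (Pdgfb between CD4 and M1, Vegfa between M2 and CD4), and the sign of 3 ratios changed: Pdgfb between CD4 and M1 (to 1.25) and Hbegf between M2 and M1 (to 0.05) and between M2 and CD4 (to 0.37). The alternative adds the rows that have a dash. Genes at 1 FPKM or more in all libraries were 7, and 6 to 9 under the alternatives, and genes with the same leading transcript 4, and 3 to 5. With all rows Vegfa was not among the latter, because its leading identifier differed between the libraries. Counts of pathway genes depended more on the settings: with a pseudocount of 0.1 they were 15 between CD4 and M1 and 26 between M2 and M1, in place of 8 and 17, and with libraries rescaled to the same total 13 and 27. The share of all genes called rose with them, from 13.0% and 30.8% to 17.5% and 38.5% with that pseudocount and to 16% and 37.8% with that scaling. That scaling also raises all levels against the pseudocount of 1 FPKM, so that it is also a change of pseudocount. With a minimum of 10 FPKM fewer genes were tested. The pathway genes called were 4 between CD4 and M1, 11 between M2 and M1 and 9, in place of 16, between M2 and CD4. These were 13.8%, 37.9% and 31% of the pathway genes tested, beside 12.5%, 32% and 33.6% of all genes tested. No paired analysis was possible because each group has 1 library, and for the same reason no library could be left out. At the estimated depths the level of Vegfc rests on 13.1 to 22.2 fragments. The counting interval of its fold was 0.84 to 3.73 for M2 against M1 and 0.59 to 3.05 for CD4 against M1. For M2 against CD4 it was 0.64 to 2.68. A difference within these intervals was not detectable for Vegfc.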

Other observations

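For a few pathway genes most of the listed level was also in rows with a dash. Igfbp4, a secreted protein that binds and holds back IGF-1, was at 0 by the rule in all 3 libraries, and with all rows at 12.52 FPKM in the library labelled M1, 0 in M2 and 85.76 FPKM in CD4, the library in which Igf1 was also highest. Tgfbr1, the type I TGF-beta receptor, was at 13.99, 13.7 and 21.34 FPKM in M1, M2 and CD4 by the rule and at 2128, 318.2 and 328 FPKM with all rows. Hgf, hepatocyte growth factor, was below 0.3 FPKM by the rule and at 1.533, 0.2447 and 2.719 FPKM with all rows. These 3 genes were chosen after their values were seen.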
